A study of Mus musculus with 7 samples.

Results

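The dual-specificity MAP kinase phosphatases are represented here by 10 chosen genes, Dusp1, Dusp2, Dusp4, Dusp5, Dusp6, Dusp7, Dusp8, Dusp10, Dusp14 and Dusp16, of 21883 protein-coding genes in the RefSeq table of GRCm38.p6. Called Fos peaks were assigned to a gene when any base lay inside the gene span or within 50 kb of it. Peaks of all lists were merged into regions where they overlapped by at least 1 bp. Of 68873 merged regions in the genome, 103 lay within reach of these genes, and 99 of those held a peak of a kainic acid library.

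The peaks come from chromatin immunoprecipitation and sequencing (ChIP-seq) with a monoclonal antibody to Fos, which pairs with Jun proteins to form AP-1 and is made in neurons soon after they fire strongly. The tissue was the hippocampus of wild-type C57BL/6J mice aged 2 months. The control group received PBS (saline) and has 3 libraries. The treated group received kainic acid, a glutamate receptor agonist that provokes seizures, by intraperitoneal injection at 10 mg/kg, given 2 times with 30 min between injections. Animals of this group that reached level 4 seizures were killed 1 h after the first injection, and it also has 3 libraries. The labels do not give the number of animals behind a library, so the spread between libraries may be technical. The tissue label could not be tested against marker genes, since a peak list holds no expression values, and whole hippocampus mixes neurons with other cells.

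MAP kinases are switched on when an upstream kinase adds phosphate to a threonine and a tyrosine of their activation loop. Dual-specificity phosphatases remove both phosphates and so end the signal, and many of their genes are themselves switched on by the kinases they act on, which makes them a feedback brake. In the hippocampus several are known as immediate-early genes that respond to seizures, alongside Fos. Members differ in where they sit in the cell (nucleus or cytoplasm) and in which kinase they prefer (ERK, JNK or p38). AP-1 binds the sequence TGANTCA, and related dimers bind the cAMP response element TGACGTCA, while serum response factor binds the CArG box that many immediate-early genes carry.

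The lists differed greatly in length, and this touches every count that follows. Kainic acid replicates 1, 2 and 3 held 15009, 63197 and 29650 peaks. Saline replicate 2 held 3277 peaks, whereas saline replicates 1 and 3 held 7 and 2, none of them near a phosphatase gene, so peaks called in saline come from 1 library. The reads over a summit were solved from the deposited fold and p-value; the lowest number behind any peak was 12, 9 and 13 in the kainic acid lists and 12, 11 and 17 in the saline lists. Total reads per library are not known. A region missing from a list was not called there, which does not make it unbound.

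The promoters where the data or the motifs bear on a start site are shown first. RefSeq promoter sequences (GRCm38.p6, 250 bases before to 50 after the start) were matched for 9 of the 10 genes, Dusp1, Dusp2, Dusp5, Dusp6, Dusp7, Dusp8, Dusp10, Dusp14 and Dusp16. The first 3 below are the member promoters that hold a searched motif, with the motif in capitals. They are Dusp1 at chr17:26508423-26508722 (minus strand), Dusp5 at chr19:53528895-53529194 (plus strand) and Dusp8 at chr7:142095235-142095534 (minus strand).
Dusp1 promoter: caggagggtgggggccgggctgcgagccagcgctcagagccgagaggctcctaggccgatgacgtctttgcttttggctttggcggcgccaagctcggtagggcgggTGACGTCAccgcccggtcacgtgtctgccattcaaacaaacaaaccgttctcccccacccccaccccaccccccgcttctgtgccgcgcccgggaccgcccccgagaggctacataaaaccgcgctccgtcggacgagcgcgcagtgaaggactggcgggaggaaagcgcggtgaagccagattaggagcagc
Dusp5 promoter: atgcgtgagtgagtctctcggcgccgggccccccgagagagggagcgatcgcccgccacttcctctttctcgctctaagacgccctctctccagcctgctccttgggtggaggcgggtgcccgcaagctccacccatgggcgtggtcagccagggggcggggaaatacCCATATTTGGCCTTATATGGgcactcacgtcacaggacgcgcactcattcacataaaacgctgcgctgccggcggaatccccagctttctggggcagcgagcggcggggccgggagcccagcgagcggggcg
Dusp8 promoter: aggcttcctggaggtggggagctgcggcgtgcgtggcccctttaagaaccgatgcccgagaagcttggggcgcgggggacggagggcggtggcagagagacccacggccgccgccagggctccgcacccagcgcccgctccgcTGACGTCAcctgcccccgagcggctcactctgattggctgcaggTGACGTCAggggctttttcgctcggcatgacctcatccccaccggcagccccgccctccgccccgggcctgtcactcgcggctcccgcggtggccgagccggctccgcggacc

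The other two are the promoters that lay under peaks of more than 1 kainic acid list. In Dusp6, at chr10:99262981-99263280 (plus strand), the capitals mark 11 bases centred on the summit of each of 2 kainic acid peaks. In Dusp14, at chr11:84068308-84068607 (minus strand), the capitals mark the 110 bases that lay inside the peaks of all 3 kainic acid lists.
Dusp6 promoter: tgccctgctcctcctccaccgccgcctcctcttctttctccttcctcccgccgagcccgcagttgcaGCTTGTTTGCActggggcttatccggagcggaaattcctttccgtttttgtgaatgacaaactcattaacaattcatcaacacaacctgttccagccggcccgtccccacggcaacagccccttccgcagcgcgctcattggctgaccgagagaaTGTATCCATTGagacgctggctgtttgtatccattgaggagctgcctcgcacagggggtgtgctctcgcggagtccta
Dusp14 promoter: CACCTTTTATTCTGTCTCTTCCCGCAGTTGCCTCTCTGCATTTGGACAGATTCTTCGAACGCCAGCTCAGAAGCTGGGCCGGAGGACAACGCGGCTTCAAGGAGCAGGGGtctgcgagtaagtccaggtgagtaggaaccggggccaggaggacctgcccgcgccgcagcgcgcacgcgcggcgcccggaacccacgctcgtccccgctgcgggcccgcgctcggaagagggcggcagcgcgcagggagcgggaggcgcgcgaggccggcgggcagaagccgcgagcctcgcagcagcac

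Searched on both strands, TGANTCA was found in 0 of the 9 member promoters and in 7.81% of all 32850 RefSeq promoters of the same length. TGACGTCA was found in 2 of the 9 and in 1.79% of all, and the CArG box in 1 of the 9 and in 1.63% of all. The TGACGTCA of Dusp1 starts 143 bases before the gene's start and lay in no called peak. Dusp8 carries TGACGTCA at 107 and 63 bases before its start. The peak of saline replicate 2 covered both copies, and the peak of kainic acid replicate 2 covered the nearer one. The CArG boxes of Dusp5 adjoin each other, at 82 and 72 bases before the start, and neither lay in a called peak. A match describes the letters of the window and is not a binding site, and none of these motifs overlaps another in the windows shown.

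More Fos peaks were called near the phosphatase genes in the kainic acid libraries. Saline replicates 1, 2 and 3 had 0, 7 and 0 peaks within 50 kb of the 10 genes together, of 7, 3277 and 2 in their lists. Kainic acid replicates 1, 2 and 3 had 20, 96 and 38, of 15009, 63197 and 29650. Relative to the length of its list, the count of saline replicate 2 was not below that of any kainic acid library. For 6 of the 10 genes, Dusp1, Dusp4, Dusp5, Dusp6, Dusp14 and Dusp16, every kainic acid list held more peaks than every saline list, against 33.5% of all protein-coding genes. Among the 16457 genes whose span is as long as a member's (2219 to 91596 bp) the share was 31.7%. No gene, member or other, had fewer peaks in every kainic acid list than in every saline list (0 of 21883, 0%), a count that the near-empty lists of saline replicates 1 and 3 all but fix. Without the long list of kainic acid replicate 2 the count stayed at 6 of 10, and with saline replicate 2 as the only saline library it was also 6. Leaving out a list can only keep or raise this count, so neither value tests how firm it is. With 3 libraries against 3 the exact permutation test cannot go below p = 0.1, so no single gene could pass the usual threshold. In whole tissue, more cells with bound Fos and more bound Fos per cell cannot be told apart. Total reads per library are not known, so the part of sequencing depth in these counts was not tested.

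Regions with a peak in 2 or more kainic acid libraries numbered 40, and 9 of the 10 genes had at least 1 of them, against 62.7% of all genes and 64.9% of the genes of like span. A region in all 3 lists was present for 8 genes, against 42.5% of all genes and 42.5% of those of like span. The median gene of the family had 4 regions in at least 2 lists, and the median was 1 both for all protein-coding genes and for those of like span. The median span was 12475 bp for the family's genes and 17170 bp for all genes. Beyond the comparison with genes of like span, the part of span in these counts was not tested. The 40 regions rest much on kainic acid replicate 2: without it 13 were in both remaining lists, without replicate 3 there were 18, and without replicate 1 there were 33.

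**Figure D1:**
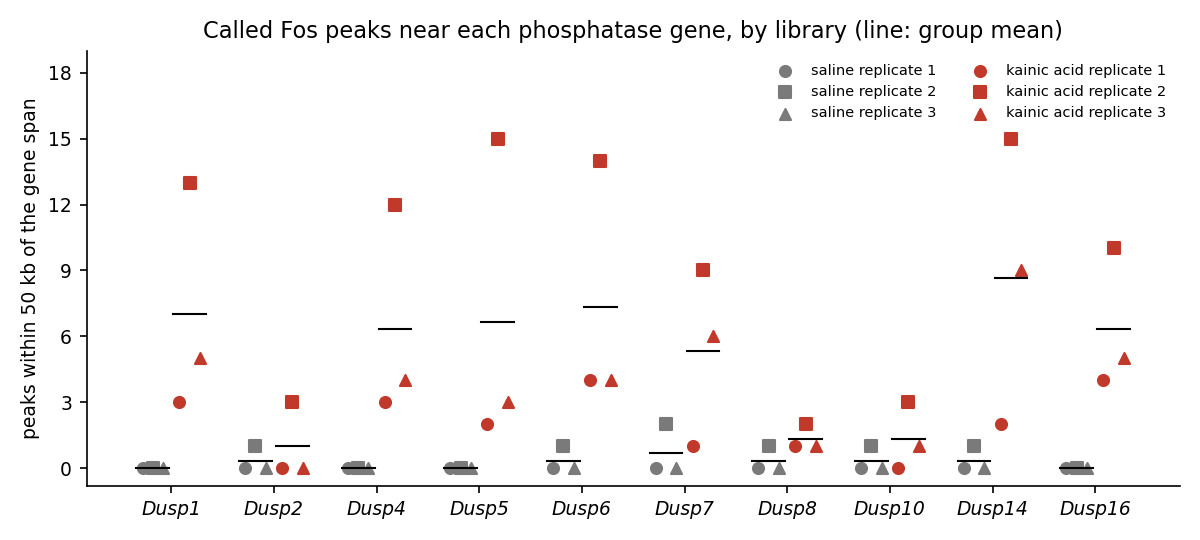
Number of called Fos peaks within 50 kb of each gene span (vertical axis) for the 10 phosphatase genes (horizontal axis), 1 symbol per library, grey for saline and red for kainic acid, with group means as black lines. All kainic acid symbols lie above all saline symbols for Dusp1, Dusp4, Dusp5, Dusp6, Dusp14 and Dusp16, and the square of kainic acid replicate 2 is highest for each gene.

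The region called strongest for a gene is the one with the best mean rank of fold among its regions in at least 2 kainic acid lists, or in 1 list where it has no such region. The inducible nuclear phosphatases are Dusp1, Dusp2, Dusp4 and Dusp5. Dusp1 acts on p38, JNK and ERK and is a classic immediate-early gene. It spans chr17:26505591-26508472, and had 0, 0 and 0 peaks in saline replicates 1, 2 and 3 and 3, 13 and 5 in kainic acid replicates 1, 2 and 3. The groups do not overlap, and kainic acid replicate 2 stands well above the other two. The means were 7 ± 5.29 (SD, n = 3) after kainic acid and 0 after saline, a difference of 7 peaks (two-sided exact permutation test, p = 0.1, the smallest that 3 libraries against 3 can give). Without kainic acid replicate 2 the difference was 4.

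Dusp1 had 14 regions with a kainic acid peak, 6 of them in at least 2 lists and 1 in all 3. That region, chr17:26518217-26518979, lay upstream of the gene, 9745 bp from its start. Its peaks had folds over local background of 6.4, 5.55 and 5.88 in the order of the replicates, with 26, 23 and 32 reads at the summit. The fold is the authors' value and belongs to 1 library, so it is given also as a percentile within its list, where 0 is the highest fold. Those percentiles were 12.7, 28.2 and 15.1, a mean of 18.7 ± 8.36 (SD, n = 3). At the start itself only kainic acid replicate 2 had a peak reaching into the promoter window, with its summit 474 bp upstream, a fold of 4.44 and 55 reads. The pair of regions just past the end of the gene, 1425 and 2843 bp from its span, were called in kainic acid replicates 2 and 3 with folds between 3.32 and 3.82.

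Dusp2, a nuclear phosphatase best known from activated immune cells, was the member with no region in at least 2 lists. It spans chr2:127336159-127338377 and had 0, 1 and 0 peaks in the saline libraries and 0, 3 and 0 in the kainic acid libraries. The groups overlap, and the difference of 0.667 peaks (1 ± 1.73 against 0.333 ± 0.577, SD, n = 3 each) gave an exact permutation p of 1. Without kainic acid replicate 2 the difference was -0.333. The strongest of its 3 regions, chr2:127333287-127333677, lay 2482 bp upstream and was called in kainic acid replicate 2 with a fold of 7.29, a percentile of 13.9 and 26 reads.

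Dusp4, a nuclear phosphatase of ERK and JNK, had the region with the best mean percentile of fold in the family. It spans chr8:34807610-34819894 and had 0, 0 and 0 saline peaks and 3, 12 and 4 kainic acid peaks, so the groups do not overlap (6.33 ± 4.93 against 0, SD, n = 3; exact permutation p = 0.1). Without kainic acid replicate 2 the difference was 3.5. The strongest region, chr8:34761861-34762414, lies 45196 bp from the gene span, and Dusp4 is the nearest protein-coding gene. Its folds were 10.8, 13.8 and 7.75 with 44, 50 and 38 reads over backgrounds of 3.17, 2.71 and 4.03. These folds ranked 186, 1099 and 1556 in the 3 lists, at percentiles of 1.23, 1.74 and 5.24 (mean 2.74 ± 2.19, SD, n = 3). The strongest region of Dusp14 ranked ahead of it in kainic acid replicate 3, in the mean without kainic acid replicate 1 (3.08 against 3.49) and when peaks were ranked by −log10 q (2.39 against 4.29), so the order of the pair is not settled. A second region lay beside it, at chr8:34762777-34763420, with peaks in kainic acid replicates 2 and 3. Within 10 kb of the gene, chr8:34804048-34804809, 2801 bp from the span, was the 1 region in at least 2 lists; it was in all 3, at a mean percentile of 50.2. The regions inside the gene were each called in 1 list.

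Dusp5, which is nuclear and selective for ERK, spans chr19:53529145-53541809. It had 0, 0 and 0 saline peaks and 2, 15 and 3 kainic acid peaks. The groups do not overlap (6.67 ± 7.23 against 0, SD, n = 3; exact permutation p = 0.1), and without kainic acid replicate 2 the difference was 2.5. Of its 16 regions, 12 were called in that library alone and 3 in at least 2 lists. The strongest, chr19:53500463-53501373, lay 27772 bp upstream of the start, with folds of 5.20, 12.0 and 7.56 and with 36, 61 and 64 reads. Its percentiles of 27.8, 2.79 and 5.82 (mean 12.1 ± 13.7, SD, n = 3) place it higher in the lists of replicates 2 and 3 than in that of replicate 1. Around the start, kainic acid replicate 2 had separate peaks with summits 367 bp before and 89 bp after it, at percentiles of 49.1 and 94.2, and the CArG boxes lie in the gap between them.

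Among the 10 genes, the ERK phosphatases of the cytoplasm are Dusp6 and Dusp7. Dusp6 is a feedback target of ERK signalling. It spans chr10:99263231-99267489 and had 0, 1 and 0 peaks in the saline libraries and 4, 14 and 4 in the kainic acid libraries. The groups do not overlap, and the means were 7.33 ± 5.77 and 0.333 ± 0.577 (SD, n = 3 each; difference 7, exact permutation p = 0.1). Without kainic acid replicate 2 the difference was 3.67. Scaled to the searched window, Dusp6 had 6.71 regions in at least 2 lists per 100 kb, about level with Dusp14 at 6.6. Among the 7 such regions of Dusp6 the best mean percentile was 31.5 ± 3.1 (SD, n = 2), at chr10:99221282-99221875, which lies nearer to Poc1b. The region in all 3 lists, chr10:99250687-99251461, lay 11770 bp upstream, at percentiles of 90.8, 9.73 and 63.1.

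Dusp6 and Dusp14 were the members with a region in at least 2 kainic acid lists over the RefSeq start. At Dusp6 this was chr10:99262838-99263336, called in kainic acid replicates 2 and 3 with folds of 7.08 and 3.6, percentiles of 15.1 and 65.2 and 31 and 22 reads. The peaks covered all 300 bases of the promoter shown, with summits 178 and 23 bp before the start. Saline replicate 2 had its peak at another place, chr10:99261523-99262104, 1127 bp upstream, with a fold of 6.30 and 26 reads. That saline peak ranked 39 of 3277, and kainic acid replicate 2 had a peak there with a fold of 3.97 at percentile 64.0.

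Dusp7 spans chr9:106368560-106375724. It had 0, 2 and 0 saline peaks and 1, 9 and 6 kainic acid peaks. The groups overlap, since saline replicate 2 lies above kainic acid replicate 1, and the difference of 4.67 peaks (5.33 ± 4.04 against 0.667 ± 1.15, SD, n = 3 each) had an exact permutation p of 0.2. Without kainic acid replicate 2 the difference was 2.83. It had 6 regions in at least 2 lists, of which 3 have Dusp7 as the nearest protein-coding gene. The best by rank, chr9:106344884-106345669, lies inside the span of Poc1a, at percentiles of 22.8 and 39.9 in kainic acid replicates 2 and 3. Around the start, saline and kainic acid peaks alternate without overlap, though the first saline peak below directly adjoins the kainic acid region. That pair stays separate only because merging needed an overlap of at least 1 bp. Saline replicate 2 had peaks at chr9:106367619-106367892 and chr9:106368332-106368610 with folds of 5.52 and 5.30, and the region between them, chr9:106367893-106368247, was called in kainic acid replicates 2 and 3 with folds of 6.03 and 2.52.

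**Figure D2:**
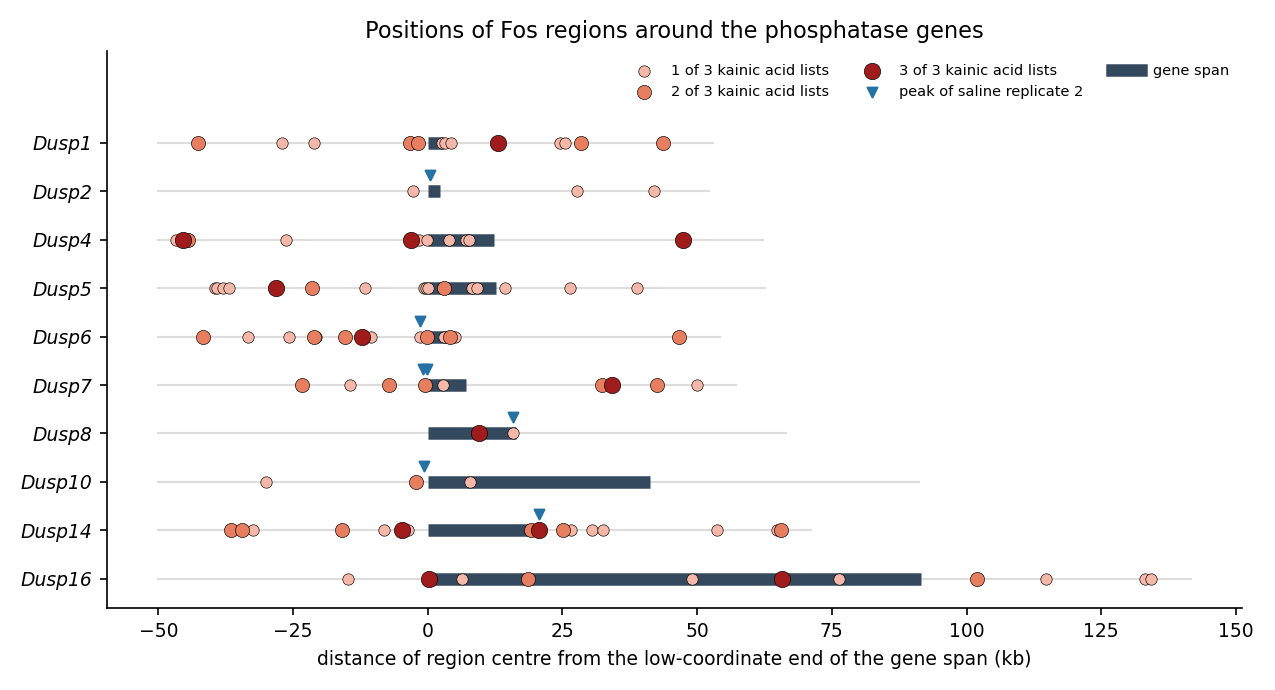
Position of each Fos region relative to the low-coordinate end of the gene span, in kb (horizontal axis), for the 10 genes (rows); bars are gene spans, circles are regions by the number of kainic acid lists that hold them, and triangles are peaks of saline replicate 2. The saline triangles lie close to a gene end, and the circles spread over the whole searched window, with 12 regions in all 3 lists.

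The phosphatases with a preference for JNK and p38 are Dusp8, Dusp10 and Dusp16, and only the last had many regions. Dusp8, expressed in brain, spans chr7:142079487-142095907. It had 0, 1 and 0 saline peaks and 1, 2 and 1 kainic acid peaks, which meet at 1 peak (1.33 ± 0.577 against 0.333 ± 0.577, SD, n = 3 each; exact permutation p = 0.3). Its region in all 3 lists, chr7:142088701-142089475, lies inside the gene, 5809 bp downstream of the start. The folds there were 4.09, 8.79 and 4.78 with 18, 35 and 25 reads, and the percentiles of 60.3, 8.02 and 28.8 vary widely between libraries (mean 32.4 ± 26.3, SD, n = 3). The other region covers the start and the TGACGTCA copies shown, with a fold of 3.65 and 31 reads in saline replicate 2 and a fold of 3.19 and 26 reads in kainic acid replicate 2.

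Dusp10 spans chr1:184034381-184075636. It had 0, 1 and 0 saline peaks and 0, 3 and 1 kainic acid peaks, so the groups overlap (1.33 ± 1.53 against 0.333 ± 0.577, SD, n = 3 each; exact permutation p = 0.7). The difference of 1 peak was 0.167 without kainic acid replicate 2. Its region in at least 2 lists, chr1:184032031-184032473, lay 1908 bp upstream at percentiles of 44.5 and 57.3 in kainic acid replicates 2 and 3. A neighbouring gene, 1700056E22Rik, is nearer to that region. When each kainic acid list was limited to its 15009 peaks of highest fold, the difference for Dusp10 was -0.333 peaks.

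Dusp16, a JNK phosphatase that shuttles between nucleus and cytoplasm, has the longest span of the family, chr6:134715468-134807063. It had 0, 0 and 0 saline peaks and 4, 10 and 5 kainic acid peaks. The groups do not overlap (6.33 ± 3.21 against 0, SD, n = 3; exact permutation p = 0.1), and the spread between kainic acid libraries was smaller than for Dusp1, Dusp4, Dusp5, Dusp6, Dusp7 and Dusp14. Of its 4 regions in at least 2 lists, 3 lie inside the gene. The strongest, chr6:134780979-134781574, is 11054 bp downstream of the start, with folds of 4.80, 10.3 and 4.77 at percentiles of 35.9, 4.91 and 29.3 (mean 23.4 ± 16.3, SD, n = 3). The other region in all 3 lists, chr6:134714909-134716562, covers the end of the gene at percentiles of 67.7, 22.8 and 48.4.

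Dusp14, a small atypical phosphatase without the MAP kinase binding domain of the other members, had the most regions in at least 2 lists, 8. It spans chr11:84048033-84069256 and had 0, 1 and 0 saline peaks and 2, 15 and 9 kainic acid peaks. The groups do not overlap (8.67 ± 6.51 against 0.333 ± 0.577, SD, n = 3 each; difference 8.33, exact permutation p = 0.1). Without kainic acid replicate 2 the difference was 5.17. The strongest region, chr11:84068067-84069477, covers the RefSeq start. Its folds were 7.24, 12.6 and 8.49 with 47, 72 and 72 reads, and its percentiles of 7.58, 2.44 and 3.72 (mean 4.58 ± 2.68, SD, n = 3) were under 10 in every kainic acid list.

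The kainic acid summits at Dusp14 fell 316, 257 and 308 bp before the RefSeq start, just outside the promoter shown, and still inside the gene span, which reaches beyond that start. Saline replicate 2 also had a peak in this region. It had a fold of 3.16 at percentile 91.8, 20 reads and a summit 74 bp before the start. This was the 1 region of the 40 that also held a saline peak (2.5%), beside 2.01% of all 26862 regions in at least 2 kainic acid lists. A further region inside the gene, chr11:84066739-84067829, was called in kainic acid replicates 2 and 3 at percentiles of 8.29 and 27.7. Of the 8 regions, 3 have Dusp14 as the nearest protein-coding gene, and the region in all 3 lists at chr11:84042701-84044017 is nearest to Synrg.

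**Figure D3:**
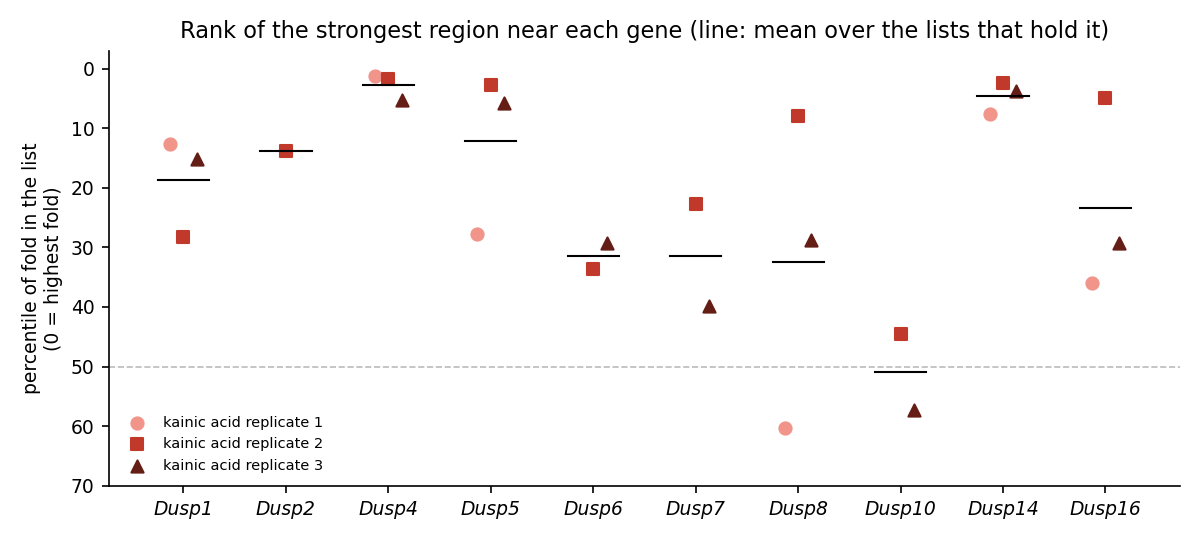
Percentile of the fold within each kainic acid list (vertical axis, 0 is the highest fold, axis inverted) for the strongest region of each gene, 1 symbol per library, with the mean as a black line and the dashed line at the middle of a list. Dusp4 and Dusp14 lie within the top 10% of each of the 3 lists, whereas Dusp8 spreads from 8.02 to 60.3; Dusp2 has a single symbol, and Dusp6, Dusp7 and Dusp10 have 2.

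The strongest regions fell into an order by mean percentile of Dusp4, Dusp14, Dusp5, Dusp2, Dusp1, Dusp16, Dusp7, Dusp6, Dusp8 and Dusp10. Neighbours in this order differ by less than the larger SD of the pair, and Dusp2 rests on 1 library. Dusp6, Dusp7 and Dusp10 rest on 2, since a list without the region does not enter the mean. When a region in all 3 lists was required, Dusp6 and Dusp7 went to 54.5 and 57.5, behind Dusp8 at 32.4. The best region of each gene was picked by its rank, so these ranks describe and support no comparison. Across all 40 regions the median of the mean percentile was 47.8, beside 41.9 for all 26862 regions in at least 2 kainic acid lists. Regions with a mean percentile of at most 25 made up 6 of the 40 (15%, 95% Clopper-Pearson interval 5.71 to 29.8, counting error only), beside 24.9% of all such regions.

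**Figure D4:**
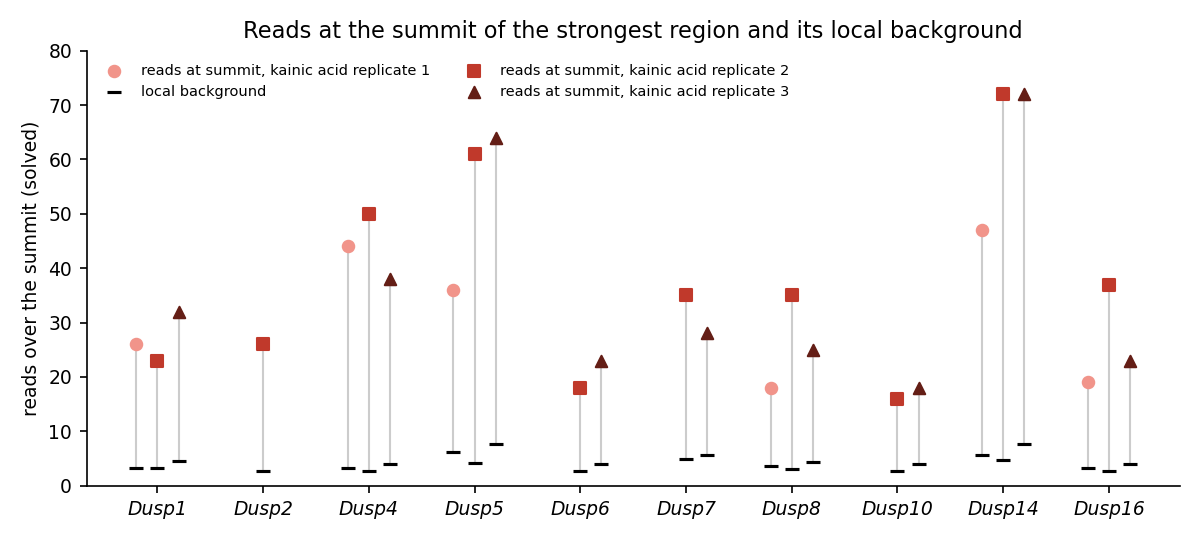
Reads over the summit of the strongest region (symbols) and local background (black dashes) in each kainic acid library that called it, for the 10 genes; the vertical axis is reads solved from the deposited fold and p-value. Summits reach 72 reads at Dusp14 and 16 to 18 reads at Dusp10, and the backgrounds lie between 2.71 and 7.59.

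Replicate support was set beside that of the whole genome. Of the 99 regions with a kainic acid peak, 40 were in at least 2 lists (40.4%), beside 40.3% of all regions, and 12 were in all 3 (12.1%, 95% Clopper-Pearson interval 6.42 to 20.2), beside 17.9% of all. Of the 59 regions in a single list, 55 were from kainic acid replicate 2 (93.2%), beside 89% genome-wide. Reads at the summit were at the level of each list: the median was 20 near the phosphatase genes and 22 in the list of kainic acid replicate 1, 20 and 20 in replicate 2, and 25 and 24 in replicate 3. The median width was 630 bp for the 40 regions and 686 bp for all regions in at least 2 lists.

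Of the 40 regions, 22 (55%) lay over 10 kb from the gene span, 9 lay within 10 kb but outside it, and 9 inside it. The phosphatase gene was the nearest protein-coding gene for 27 of the 40 (67.5%), so the others may equally belong to neighbours such as Poc1a, Poc1b, Rpl29, Synrg, Tada2a, Tnks, Ergic1 or Neurl1b. Of the 36 regions at genes with a known start, 16 were upstream, 18 downstream and 2 over the start, and 4 came within 1 kb of it (11.1%, Clopper-Pearson interval 3.11 to 26.1).

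Saline replicate 2 had 7 peaks within 50 kb of 6 members, Dusp2, Dusp6, Dusp7, Dusp8, Dusp10 and Dusp14, and 30.2% of all protein-coding genes had such a peak. Of these 7 peaks, 6 came within 1 kb of the start (85.7%, Clopper-Pearson interval 42.1 to 99.6), and the farthest was 1127 bp away. Over the genome, 58.2% of the 3249 regions with a peak of this library lay within 1 kb of a RefSeq start, so closeness to a start is common in the whole list. Of all 26862 regions in at least 2 kainic acid lists the share within 1 kb of a RefSeq start was 9.73%, and of the 40 near the phosphatase genes it was 15% when the start of any gene counts. The 7 peaks of saline replicate 2 held between 16 and 31 reads at the summit. Of the 7, 3 were in a region with a kainic acid peak (42.9%, Clopper-Pearson interval 9.9 to 81.6), and nothing is read from so wide an interval. Those not described above were at Dusp2, chr2:127336430-127336813, 271 bp downstream of the start with a fold of 3.97, and at Dusp10, chr1:184033399-184033865, 516 bp upstream with a fold of 4.58. Saline replicates 1 and 3 had no peak there, and whether this comes from their short lists was not tested.

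Other genes of the pathway were counted in the same way. Over all protein-coding genes the shares to read these counts against are 62.7% for a region in at least 2 kainic acid lists, 42.5% for one in all 3 and 33.5% for groups that do not overlap. Of 18 other dual-specificity phosphatases, 16 had a region in at least 2 kainic acid lists, 13 had one in all 3, and for 12 the kainic acid lists lay above the saline lists. Dusp3, a small phosphatase of ERK and JNK, had 9 regions and Ssh2, a cofilin phosphatase, had 8, while Dusp21 and Dusp23 had none. Of 14 MAP kinases, 13 had a region in at least 2 lists and for 6 the groups did not overlap. Mapk10, the neuronal JNK, had 19 regions over a long gene and Mapk4 had 14, while Mapk15 had none.

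Of 25 MAP2 and MAP3 kinases, which lie upstream of the MAP kinases, 22 had a region in at least 2 lists and for 12 the groups did not overlap. Map2k4, which activates JNK, had 12 regions, and Map2k6, which activates p38, and Map3k5 had 10 each, while Araf, Map2k7 and Map3k10 had none. Of 15 other feedback inhibitors the counts were 13 and 11. Among them Spred2, an inhibitor of Ras to Raf signalling, had 11 regions and Errfi1, an inhibitor of the EGF receptor, had 8, while Spred3 and Spry3 had none. Of 21 downstream kinases and factors the counts were 18 and 14. The ETS factor Elk3 had 10 regions and Mef2c had 9, while Rps6ka3, Rps6ka6 and Srf had none.

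The median number of regions per gene with support from 2 or more kainic acid libraries was 2.5 for the other phosphatases and the MAP kinases and 3 for each of the other lists, beside 4 for the 10 phosphatase genes and 1 for all protein-coding genes. Median spans ran from 12927 bp for the other phosphatases to 62815 bp for the MAP2 and MAP3 kinases, and a longer span searches a wider window. In none of the 5 lists did a gene have fewer peaks in every kainic acid list than in every saline list. Nothing is read as particular to any list.

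**Figure D5:**
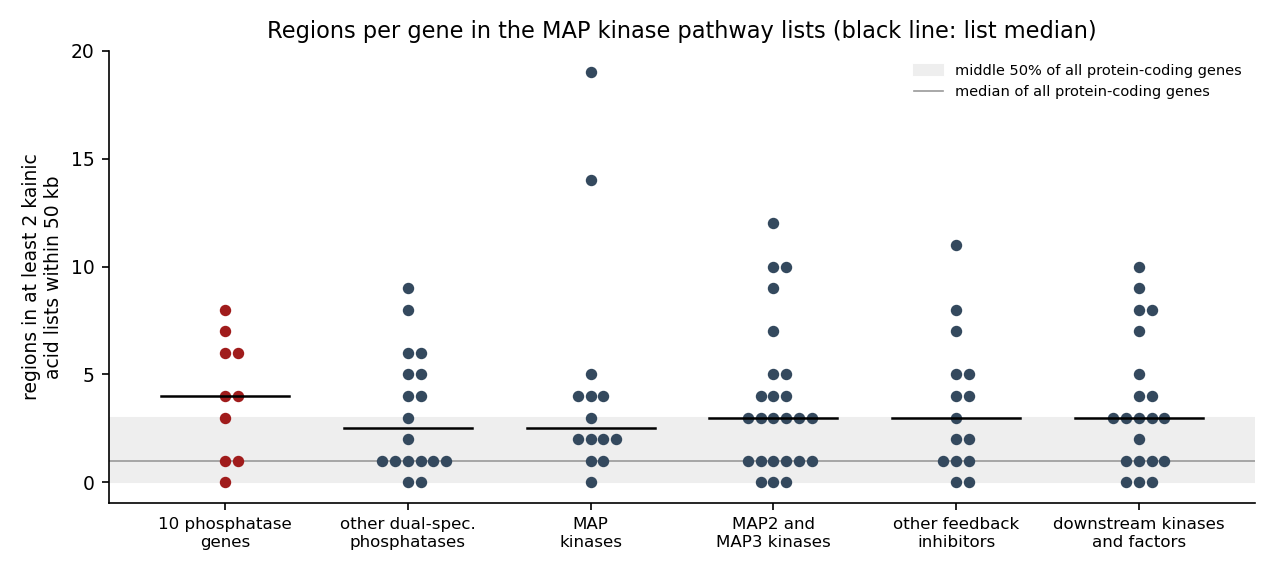
Regions per gene with a peak in 2 or more kainic acid libraries within 50 kb (vertical axis) for each gene (dots) of the 10 phosphatase genes and the 5 pathway lists (horizontal axis); black lines are list medians, the grey line is the median of all protein-coding genes and the grey band their middle 50%. The list medians lie between 2.5 and 4, above the genome median of 1, and the highest dot is Mapk10 with 19.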

How the data were processed

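Fos ChIP-seq was run on 3 saline and 3 kainic acid libraries, and 1 input library has no list used here. Per the submitters' processing notes, the tools were Trim Galore 0.6.4, Bowtie2 2.3.4.3, MACS2 (version not given in the sources used here) and deepTools 3.5.0, with build mm10, which is GRCm38. Per the file contents, reads were trimmed and filtered at a mapping quality of 30, and peaks were called per library. The calling threshold and any control are not given in the sources used here.

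Each of the 6 deposited lists has 10 columns. Column 7 of the deposited lists is a fold, a linear ratio to local background in 1 library. The deposited −log10 p and −log10 q belong to the same library, and the deposited score is derived from the latter. None is scaled between libraries, so comparisons of these values stayed inside a single library. For each peak, reads over the summit and background were solved from a Poisson p-value and the fold, taken as (reads + 1)/(background + 1). The match was to within 0.001 in −log10 p, as a fraction of it where it is above 1. All peaks with −log10 p under 290 were solved. Merging, counting and solving were tested on simulated data.

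Gene spans, starts and promoters came from RefSeq tables (GRCm38.p6, no exons). Per gene, peak numbers were compared by a two-sided exact permutation test over 20 assignments, unadjusted. The members and lists were chosen with earlier results of these data known. All 10 members are named, with the region of best mean fold rank in at least 2 kainic acid lists (failing that, in 1) and each region with a saline peak; in each pathway list the genes with most regions and those with none are named, and other regions were chosen after their values were seen. Leaving out saline replicates 1 and 3 together was added after seeing the data. Sequences of distal regions were not used here. Python 3.11.15, pandas 2.3.3 and SciPy 1.17.1 were used.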

Additional observations from a re-analysis of the deposited data

How the results depend on the processing

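Each count was recomputed with another reach, overlap, threshold or set of libraries. The 40 regions with support from 2 or more kainic acid libraries became 18 at a reach of 10 kb, 22 at a −log10 q of at least 5, 5 at 10 or more, 12 when all 3 lists were required and 16 with equal numbers of peaks per list, and ranged from 13 to 40 with 1 library left out. The 9 members with such a region became 4 at a −log10 q of at least 10. The 2.5% of regions with a saline peak became 0% at a −log10 q of at least 5 and of at least 10, and ranged from 0% to 7.69% with 1 library left out. The 6 members with groups that do not overlap ranged from 4 to 8 over all alternatives. The difference in peaks reversed for Dusp2 without kainic acid replicate 2 and for Dusp10 with equal numbers of peaks, to -0.333 in both; the cause was not tested. With 1 library left out, the Dusp2 difference ran from -0.333 to 1.17. The other 138 of 140 recomputed differences kept their direction or were 0, but many of these could not reverse. Dusp1, Dusp4, Dusp5 and Dusp16 had 0 peaks within 50 kb in every saline list, and the replicate block leaves each difference unchanged. Of 124 recomputed percentiles of the strongest regions at genes where 2 or 3 libraries give a spread, 26 moved by more than that spread: within 10 kb, Dusp4 and Dusp5 went to 50.2 and 45.6, within 100 kb Dusp16 went to 3.26, and without kainic acid replicate 2 Dusp6 and Dusp7 went to 76.9 and 75.9 and Dusp2, whose region is in 1 library, gave no value.

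With a replicate block, which compares same-numbered libraries, the differences are the same by construction (7 for Dusp1) and the smallest exact p of 3 pairs is 0.25. No label ties libraries of the same number together. Correlating the libraries' deviations from the group mean could not test it, since the near-empty saline lists make differently numbered libraries correlate alike (0.354 for saline 3 with kainic acid 1 and for the pair numbered 1), so no pairs were used. Saline lists of 7 and 2 peaks and unknown read totals limit any statement on what saline lacks.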
